A study of Drosophila melanogaster with 12 samples.

Results

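In fly heads, 39 probe sets are described here as the transcripts highest at 18 °C. Each had a higher value on every array taken at 18 °C than on any array taken at 25 °C. They were selected on these values. Among 13966 probe sets other than controls, 8121 had a mean of at least 4 (log2) over the 12 arrays. A member also needed its lowest value of the 3 at 18 °C above its highest of the 9 at 25 °C, and a mean at 18 °C at least 0.3 above that at 25 °C. Without the floor on the difference, 85 probe sets qualified. All conditions were met by 42 probe sets, of which 3 were left out by name, and the 39 others are the members. The opposite pattern, with the same floors, was found in 14 probe sets. Of the members 33 carried 1 gene symbol, 3 carried several and 3 carried none, and the latter are given by probe set ID. All 39 passed the filter on low values used for the tests.

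Heads of y w flies, which have pigment mutations and no known clock mutation, were profiled on Affymetrix Drosophila arrays, with 1 array per time point, each from pooled heads. All flies were kept in darkness at 25 °C until the early pupal stage, then in a thermocycle of 12 h at 18 °C and 12 h at 25 °C until eclosion and for 4 d as adults, so every group shares that history. The last day of the thermocycle, called CA, gave a cryophase at 18 °C (arrays CA2, CA6 and CA10, numbered by the hour from the onset of 18 °C) and a thermophase at 25 °C (CA14, CA18 and CA22). The next day, called AA, stayed at 25 °C and gave a subjective cryophase (AA2, AA6 and AA10) and a subjective thermophase (AA14, AA18 and AA22). The sex of the flies was not stated, and nothing says that the time points came from separate cultures. The arrays of a group differ in hour, so each SD and p-value below mixes time of day with other spread between arrays.

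Flies do not hold their body temperature, so the speed of their enzymes, channels and synapses follows the surroundings. Transcripts in the head can follow a daily temperature cycle directly, or can be timed by the circadian clock, which a thermocycle sets. In the clock, CLK and CYC activate per, tim, vri, Pdp1 and cwo, and the protein made from cwo represses targets of CLK and CYC. A further day at constant 25 °C removes the temperature change that set the clock, while rhythms timed by the clock can continue.

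Array medians lay between 4.35 and 4.39 (log2), and the correlation between arrays lay between 0.974 and 0.995. RNA quality can be read from the eIF-4a control probe sets, which lie toward the 3′ and the 5′ end of one mRNA. A larger 3′ minus 5′ difference means that less of the 5′ end was seen. This difference was 2.44 to 2.74 at 18 °C and 0.96 to 3.23 at 25 °C, where 7 of the 9 arrays lay below all 3 arrays at 18 °C and 2, CA22 and AA22, lay above them. Of the gut markers (trypsins, Jonah proteases and lysozymes) 21 of 22 had a lower mean at 18 °C, with a median difference of -0.23, and log2 of their summed level was 10.51 to 11.69 at 18 °C and 10.58 to 12.47 at 25 °C. Of the neuronal markers 6 of 7 had a higher mean at 18 °C, with a median of 0.31, and their summed level was 8.48 to 8.93 at 18 °C and 8.17 to 8.87 at 25 °C. No marker was at 0, as robust multi-array values have a positive floor. In whole heads, more cells of a type and more RNA per cell cannot be told apart.

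The mean at 18 °C lay 0.30 to 1.19 above the mean at 25 °C over the members, with a median of 0.41. Because this difference chose them, it is given as a description with no test. At the edge of the rule, sei (0.303) and 142452_at (0.304) were just inside the floor on the difference, and CG17233 (0.299) and 148950_at (0.298) were just outside it. The gap between the lowest array at 18 °C and the highest at 25 °C was 0.001 for CG6769 and 0.005 for 146946_s_at, while MED26 (-0.002) and lncRNA:CR32218 (-0.003) overlapped by as little. The plot of all members by array shows where each was high and low.

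**Figure D1:**
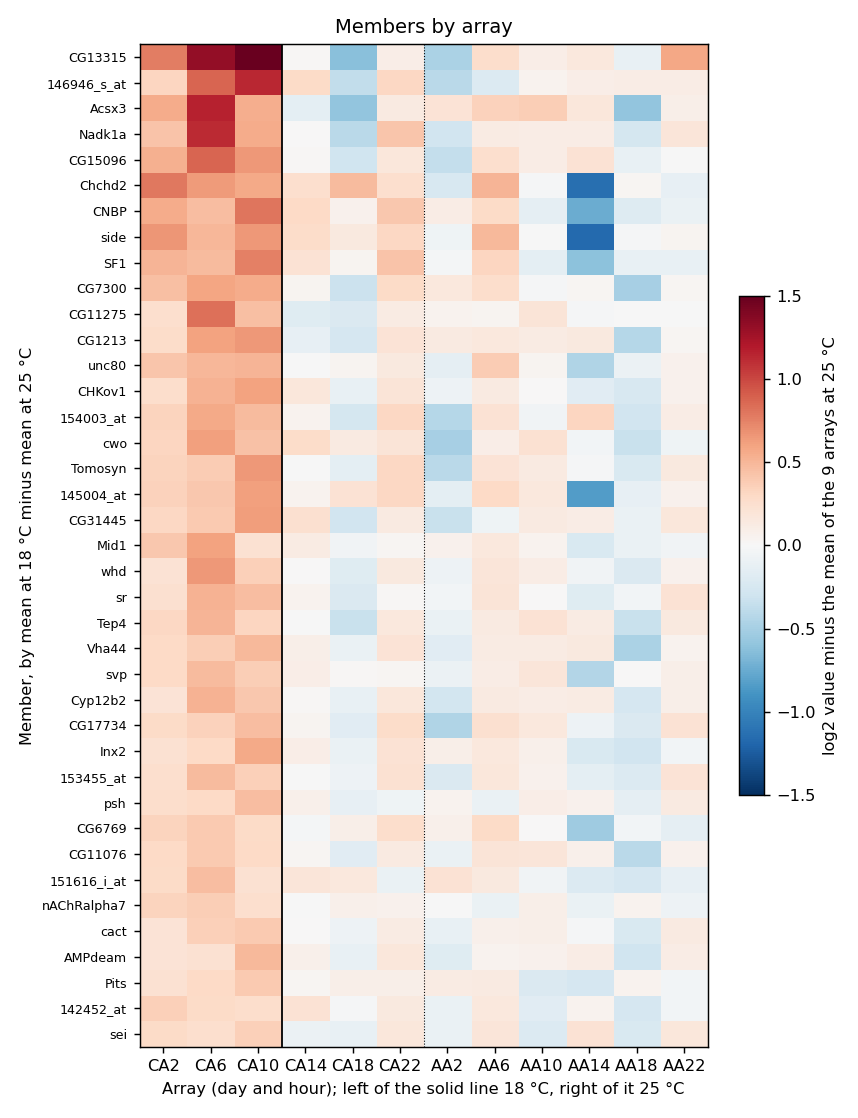
Members in rows, ordered by the mean at 18 °C minus the mean at 25 °C, and the 12 arrays in columns. The colour is the log2 value minus the member's mean over the 9 arrays at 25 °C. The first 3 columns are the arrays at 18 °C, where CG13315 reaches the deepest red, and dark blue cells at AA14 belong to members such as Chchd2 and side.

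CG13315, a gene of unknown function, had the largest difference of all members. Its values at 18 °C were 10.14 at CA2, 10.69 at CA6 and 10.86 at CA10, and at 25 °C the lowest, median and highest were 8.75, 9.48 and 9.95. The cold values climbed away from the warm ones after CA2, and the lowest warm array was CA18. Its mean was 10.56 ± 0.38 (SD, n = 3) at 18 °C and 9.38 ± 0.37 (SD, n = 9) at 25 °C, a 2.28-fold difference.

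Several members take part in metabolism or transport. Acsx3, an acyl-CoA synthetase by its name, was at 5.53, 6.13 and 5.52 in the CA2, CA6 and CA10 arrays, against 4.39, 5.12 and 5.35 for the lowest, median and highest array at 25 °C. It stood highest at CA6, and both hour 18 arrays (4.388 at CA18 and 4.385 at AA18) were its lowest. whd, the carnitine palmitoyltransferase that lets long-chain fatty acids enter mitochondria, was at 7.64, 8.07 and 7.78 at 18 °C and between 7.21 and 7.60 at 25 °C, with a difference of 0.41. Nadk1a, an NAD kinase and so a source of NADP, was at 6.14, 6.84 and 6.28, and its values at 25 °C ran from 5.32 to 6.14 with a median of 5.83. For Nadk1a the CA2 and CA22 arrays nearly touched, with a gap of 0.007.

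CG15096, a predicted membrane transporter, had the widest gap of all members (0.27). Its values were 9.87, 10.21 and 9.995 at 18 °C and ran from 8.98 to 9.60 at 25 °C, with a mean difference of 0.68. CG1213, a predicted sugar transporter, was at 7.60, 7.93 and 7.97 at 18 °C and at 6.90 to 7.53 at 25 °C. Cyp12b2, a mitochondrial-type cytochrome P450, had a difference of 0.37, Vha44, a subunit of the proton pump of vacuoles, one of 0.38, and AMPdeam, AMP deaminase, one of 0.31. The probe set 146946_s_at, shared by the peroxiredoxin genes Prx6b and Prx6c and by CG12896, was at 7.05, 7.61 and 7.86 at 18 °C. Its difference of 0.78 was second only to that of CG13315, and its signal cannot be divided among the 3 genes. Its CA2 value lay just above CA14 (7.01) and CA22 (7.04).

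Other members act in neurons or at cell contacts. unc80, a subunit of the sodium leak channel complex that sets resting excitability, was at 6.56, 6.65 and 6.66 at 18 °C, and its lowest, median and highest values at 25 °C were 5.69, 6.18 and 6.52. Mid1, the fly relative of a factor needed by the same channel in worms, was at 5.42, 5.62 and 5.25 at 18 °C and between 4.79 and 5.18 at 25 °C. Tomosyn, which restrains the fusion of synaptic vesicles, was at 6.39, 6.44 and 6.72 at 18 °C and between 5.66 and 6.38 at 25 °C. In all 3 the closest approach was small, with gaps of 0.034, 0.071 and 0.013.

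sei, an ERG-type potassium channel whose mutants are paralysed by heat, was at 5.85, 5.82 and 5.93 at 18 °C, and 5.34 to 5.79 at 25 °C. nAChRalpha7, a nicotinic acetylcholine receptor subunit, was at 4.61, 4.64 and 4.53 against 4.18 to 4.36, and although its difference was only 0.32, its gap of 0.172 was wide beside its SD of 0.06 at 18 °C and 0.07 at 25 °C. side, an immunoglobulin protein that guides motor axons, was at 6.35, 6.19 and 6.34 at 18 °C and between 4.52 and 6.17 at 25 °C. Inx2, a gap junction protein, was at 5.03, 5.10 and 5.37 against 4.52 to 5.02. The wide warm range of side came from AA14, its lowest array.

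A further set works in transcription, RNA or its control. cwo was at 5.41, 5.71 and 5.53 at 18 °C, and its lowest, median and highest values at 25 °C were 4.59, 5.19 and 5.37, with AA2 lowest and CA14 highest. CNBP, a zinc finger protein that binds single-stranded nucleic acids, was at 9.96, 9.86 and 10.21 against 8.66 to 9.81. SF1, which recognises the intron branch point in splicing, was at 6.05, 6.03 and 6.30 against 4.93 to 5.98. The nuclear receptor svp was at 6.33, 6.52 and 6.41 against 5.601 to 6.22. sr, an EGR-type transcription factor of tendon cells, had a difference of 0.41 and Pits, a partner of the repressors Ttk69 and Sin3A, one of 0.31. Chchd2, a mitochondrial protein, was at 10.02, 9.86 and 9.80 at 18 °C, and it was highest at CA2, unlike most members. At 25 °C its values ran from 8.10 at AA14 to 9.74 at AA6.

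**Figure D2:**
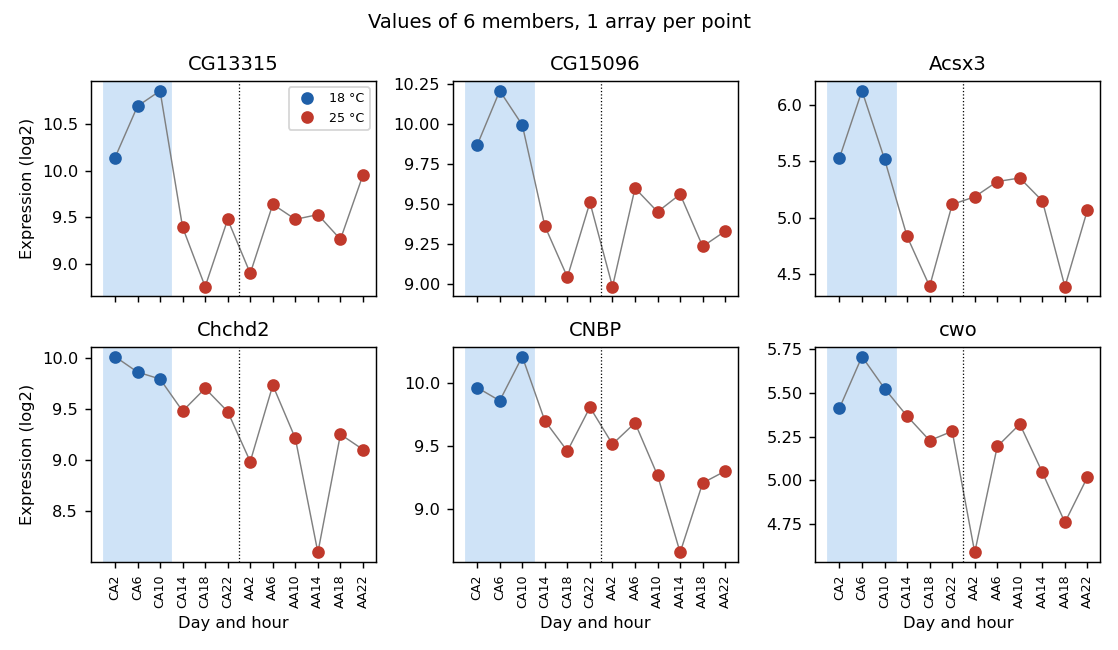
Log2 expression of 6 members (vertical axis) on the 12 arrays in order of time (horizontal axis), 1 array per point, blue at 18 °C on a shaded ground and red at 25 °C. CG13315, CG15096 and Acsx3 dip at CA18, Chchd2 and CNBP reach their lowest value at AA14 (8.10 and 8.66), and cwo is lowest at AA2 (4.59).

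Immune genes were among the members too. psh, a protease that activates the Toll pathway, was at 6.69, 6.73 and 6.89 at 18 °C against 6.29 to 6.56 at 25 °C, a gap of 0.133. cact, the inhibitor that holds back Toll's transcription factors, was at 6.59, 6.74 and 6.77 against 6.16 to 6.51. Tep4, a thioester protein of the haemolymph, had a difference of 0.38. CHKov1, where a transposon insertion in flies is associated with resistance to sigma virus, was at 5.70, 5.96 and 6.04 against 5.20 to 5.63.

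The remaining members are genes with no role given here and probe sets without a single symbol. CG7300 was at 7.01, 7.15 and 7.11 at 18 °C against 6.07 to 6.85 at 25 °C, and its gap of 0.163 lay between its SD at 18 °C (0.07) and that at 25 °C (0.26). CG11275 had a difference of 0.51, CG31445 one of 0.45, CG17734 one of 0.36, CG6769 one of 0.34 and CG11076 one of 0.33. The probe sets with several symbols or none had differences of 0.46 (154003_at, kra and CG10089), 0.45 (145004_at), 0.36 (153455_at), 0.33 (151616_i_at, CG32537 and CG32536) and 0.30 (142452_at).

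Within the cryophase the members were lower early than late. CA2 was the lowest of the 3 arrays at 18 °C in 27 of 39 members (69.23%), against 37.36% of the 8121 probe sets. CA6 and CA10 were each the highest in 18 (46.15%, against 30.27% for CA6 and 31.61% for CA10). The rule used these same values, so the shares describe selected probe sets and are no independent test. The median member stood 0.31 above its mean at 25 °C at CA2, 0.48 above it at CA6 and 0.48 above it at CA10. By CA14, the first collection after 18 °C ended, the median was 0.04. It was -0.11 at CA18 and 0.17 at CA22. These are single arrays, and CA2 also differed in its markers. The summed level of the gut markers was highest there, at 11.69 against 10.58 at CA6 and 10.51 at CA10. It was lowest there for the neuronal (8.48 against 8.93 and 8.67), photoreceptor (12.57 against 12.72 and 12.72), glial (9.60 against 9.64 and 9.70) and muscle markers (10.43 against 10.48 and 10.58). The part of these differences in the order of the cold arrays was not tested.

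**Figure D3:**
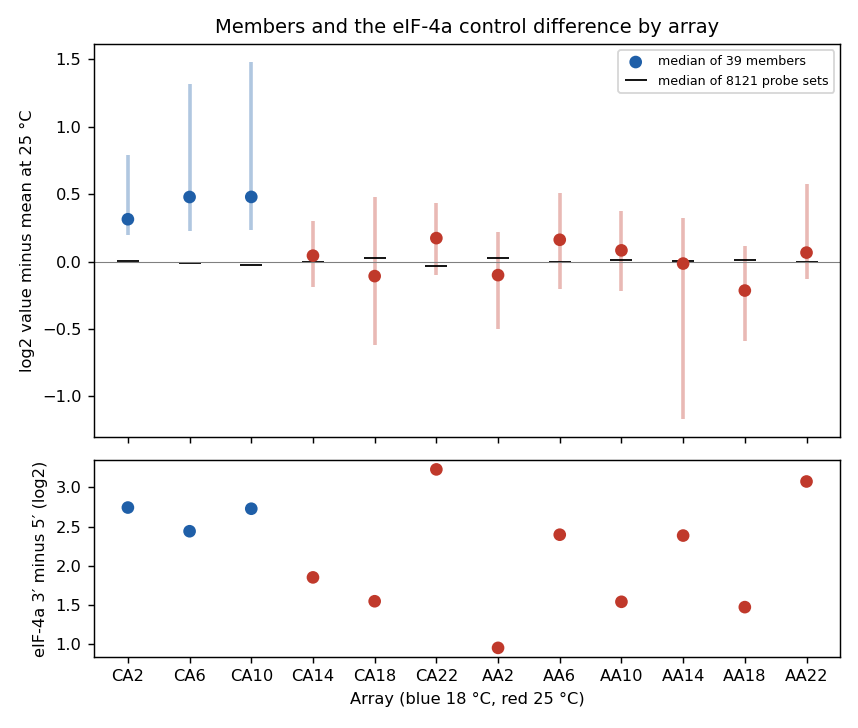
Upper panel, the median over the 39 members of the log2 value minus the mean at 25 °C for each array, with a vertical bar from the lowest to the highest member and a black tick for the median of 8121 probe sets. Lower panel, the eIF-4a 3′ minus 5′ difference (log2). Member medians are 0.31 to 0.48 at 18 °C (blue) and -0.22 to 0.17 at 25 °C (red), and the black ticks stay near 0.

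The 9 warm arrays were not alike for the members, which the rule bounds there only from above. The lowest was AA18 in 14 members (35.9%, against 10.17% of the 8121 probe sets), AA14 in 11 (28.21%, against 11.62%), AA2 in 9 (23.08%, against 15.27%) and CA18 in 5 (12.82%, against 6.23%). The highest was CA22 in 15 (38.46%, against 14.64%) and AA6 in 9 (23.08%, against 7.51%). AA10 in 5 (12.82%, against 8.1%), AA22 in 4 (10.26%, against 8.72%) and CA14 in 3 (7.69%, against 5.02%) were closer to the share over all probe sets. AA14 was the highest in 2 (5.13%, against 13.36%) and AA2 in 1 (2.56%, against 21.6%). An hour 18 array was the lowest of the 9 in 19 of 39 members (48.72%) and in 16.4% of the 8121 probe sets. CA18 lay below both CA14 and CA22 in 32 of 39 (82.05%, against 29.75%), AA18 lay below both AA14 and AA22 in 25 of 39 (64.1%, against 37.04%), and both dips were present in 24 of 39 (61.54%, against 21.83%). A low warm array also raises the difference that the rule asks for, so these shares are descriptions. The eIF-4a difference was 1.55 at CA18, 1.48 at AA18 and 0.96 at AA2, and 3.23 at CA22 and 3.08 at AA22. It was 2.39 at AA14, 2.40 at AA6, 1.54 at AA10 and 1.85 at CA14. CA14, CA22, AA6, AA10 and AA22 were each the lowest in 0 members. The part of the eIF-4a difference in the members' order was not tested. With its linear part removed, 32 probe sets met the rule, and 21 of them were among the 39. CG13315, Acsx3, CG15096, Chchd2, CNBP and side were retained, while cwo, Tomosyn, CG1213, whd, Tep4, cact and sei were not.

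The members with AA14 as their lowest warm array were Chchd2, CNBP, side, SF1, unc80, 145004_at, Mid1, svp, CG6769, nAChRalpha7 and Pits. For Chchd2 the drop was deep, with 8.10 at AA14 against 8.99 for its next lowest warm array. For side the values were 4.52 and 5.61. The neuronal markers were also lowest at AA14, with a summed level of 8.17 against 8.36 to 8.87 on the other 8 warm arrays, and so were the muscle markers, with 10.20 against 10.40 to 10.89. The summed level of the glial markers, at 9.60, lay within the range of the other warm arrays (9.39 to 9.98). That sum is carried mostly by Gs2. Averaged as each marker's deviation from its own mean, the glial markers were lowest at AA14 (-0.21), with AA22 close (-0.20). The part of neuronal, muscle or glial RNA in these members' values was not tested.

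Whether the members also varied over the AA day, with no change of temperature, was asked by comparing its 2 phases, for which no array was at 18 °C. These arrays are among the 9 at 25 °C whose highest value and mean the rule used, so the members were partly selected on them. The same holds for both comparisons that follow, and in all 3 the members' shares and limma results describe selected probe sets and are no independent test. The subjective thermophase was lower than the subjective cryophase in 31 of 39 members (79.49%), against 47.42% of all 11137 tested probe sets, and the median difference was -0.10 for the members and 0.01 for all. An unadjusted p under 0.05 by limma was found for 5 of 39 members, 12.8% against 3.53% of all probe sets in that direction. In the other direction it was found for 0 members and for 207 of all 11137 probe sets. No difference held after Benjamini-Hochberg adjustment, with a smallest adjusted p of 0.883 and 0.0% of probe sets called.

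CNBP was at 9.52, 9.68 and 9.27 in the subjective cryophase and at 8.66, 9.21 and 9.30 in the subjective thermophase. The groups overlapped, since AA22 exceeded AA10, and the difference was -0.43 (SE 0.17). CG6769 was at 6.65, 6.86 and 6.58 and then at 6.03, 6.53 and 6.44. Its groups were apart, with a difference of -0.36 (SE 0.13). Inx2 was at 4.89, 4.96 and 4.88 and then at 4.57, 4.52 and 4.77, also apart, with -0.29 (SE 0.11). The others of the 5 were 151616_i_at (-0.30, SE 0.10) and Mid1 (-0.22, SE 0.10), both with groups apart. An exact two-sided permutation test of 3 arrays against 3 cannot give a p below 0.1, so no single member could pass 0.05 by that test. Without AA14 the difference was -0.23 for CNBP and -0.21 for CG6769.

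Groups of 3 lay apart, with the subjective thermophase lower, in 6 members (Acsx3, CG11275, Mid1, Inx2, CG6769 and 151616_i_at), and in 3.89% of all probe sets. They lay apart the other way in 146946_s_at, at 6.33, 6.52 and 6.79 and then at 6.83, 6.84 and 6.84. In that direction no share over all probe sets was taken, so this only describes 146946_s_at. CG13315 went with it in sign (0.24, SE 0.26), and its groups overlapped. The count of 5 was 1 without AA6, 2 without AA14 and 10 without AA22, and it was 16 with the eIF-4a difference as a covariate and 10 with array weights. For these alternative runs no share over all probe sets is given, here or below, so such counts describe the members alone. The median of -0.10 was -0.20 without AA2, -0.18 without AA22 and -0.04 without AA18, and -0.21 with the covariate. Between these phases 5 of 7 neuronal markers were lower in the subjective thermophase (median -0.21, summed level 8.17 to 8.58 against 8.61 to 8.87) and 21 of 22 gut markers were higher (median 0.41, 11.29 to 11.65 against 10.58 to 10.78). A body-marker score, the mean of the gut and male reproductive tract scores, was also used as a covariate. The male list was drawn by gene name, and it included the cuticle protein genes Acp1 and Acp65Aa. With this score the count was 7 and the median -0.15. The part of the neuronal markers, or of the gut markers alone, in the members' differences was not tested.

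The late hours of both days were at 25 °C, but on the CA day they came 2 to 10 h after 18 °C ended and on the AA day 26 to 34 h after. This comparison shares its 3 AA arrays with the one before, so the signs of both are tied through them. The CA thermophase was higher in 27 of 39 members (69.23%), against 45.54% of all probe sets, with a median of 0.09 against -0.01. An unadjusted limma p under 0.05 was found in 8 members higher in CA, 20.5% against 1.62% of all probe sets. Lower in CA with such a p were 0 members and 156 of all 11137 probe sets. A low value at AA14 or AA18 both helps a probe set to meet the rule and enlarges this difference, so the excess is a description. The smallest adjusted p of the members was 0.999, and 0.0% of all probe sets were called.

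CNBP gave the smallest p of the members. It was at 9.70, 9.46 and 9.81 in the CA thermophase and at 8.66, 9.21 and 9.30 on the AA day, with no overlap and a difference of 0.60 (SE 0.17). Chchd2 was at 9.48, 9.70 and 9.48 against 8.10, 9.25 and 9.11, again apart, with 0.74 (SE 0.26). SF1 was at 5.77, 5.59 and 5.98 against 4.93, 5.44 and 5.44, with 0.51 (SE 0.16). The differences were 0.35 (SE 0.13) for CG6769 and 0.27 (SE 0.10) for 151616_i_at. The rest of the 8 were 145004_at, side and Inx2, at 0.49, 0.62 and 0.26. Without AA14 the difference was 0.38 for Chchd2, 0.20 for CG6769, 0.22 for 145004_at and 0.23 for side, so much of each rested on that array.

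cwo did not pass even the unadjusted threshold, but its groups were apart. Its CA thermophase values were 5.37, 5.23 and 5.28 and its AA values 5.05, 4.76 and 5.02, a difference of 0.35 (SE 0.16). Groups were apart with CA higher in 8 members, which were Chchd2, CNBP, side, SF1, cwo, Mid1, CG6769 and 151616_i_at, and in 3.21% of all probe sets. CG13315 had the opposite sign, at 9.39, 8.75 and 9.48 against 9.53, 9.26 and 9.95 (-0.37, SE 0.26). Without AA14 the count of 8 was 4, without CA22 it was 4, without CA14 it was 5, and with array weights it was 13. The median of 0.09 was -0.03 without AA18 and 0.01 without CA22, and it was 0.18 without CA18 and 0.17 without AA22. In the same comparison 5 of 7 neuronal markers (median 0.24, summed level 8.41 to 8.68 against 8.17 to 8.58) and 4 of 4 glial markers (median 0.20, 9.64 to 9.91 against 9.53 to 9.77) were higher in CA. So were 4 of 5 muscle markers (median 0.22), whose summed levels of 10.64 to 10.83 in CA did not overlap those of 10.20 to 10.53 on the AA day. Their part in the members' differences was not tested.

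**Figure D4:**
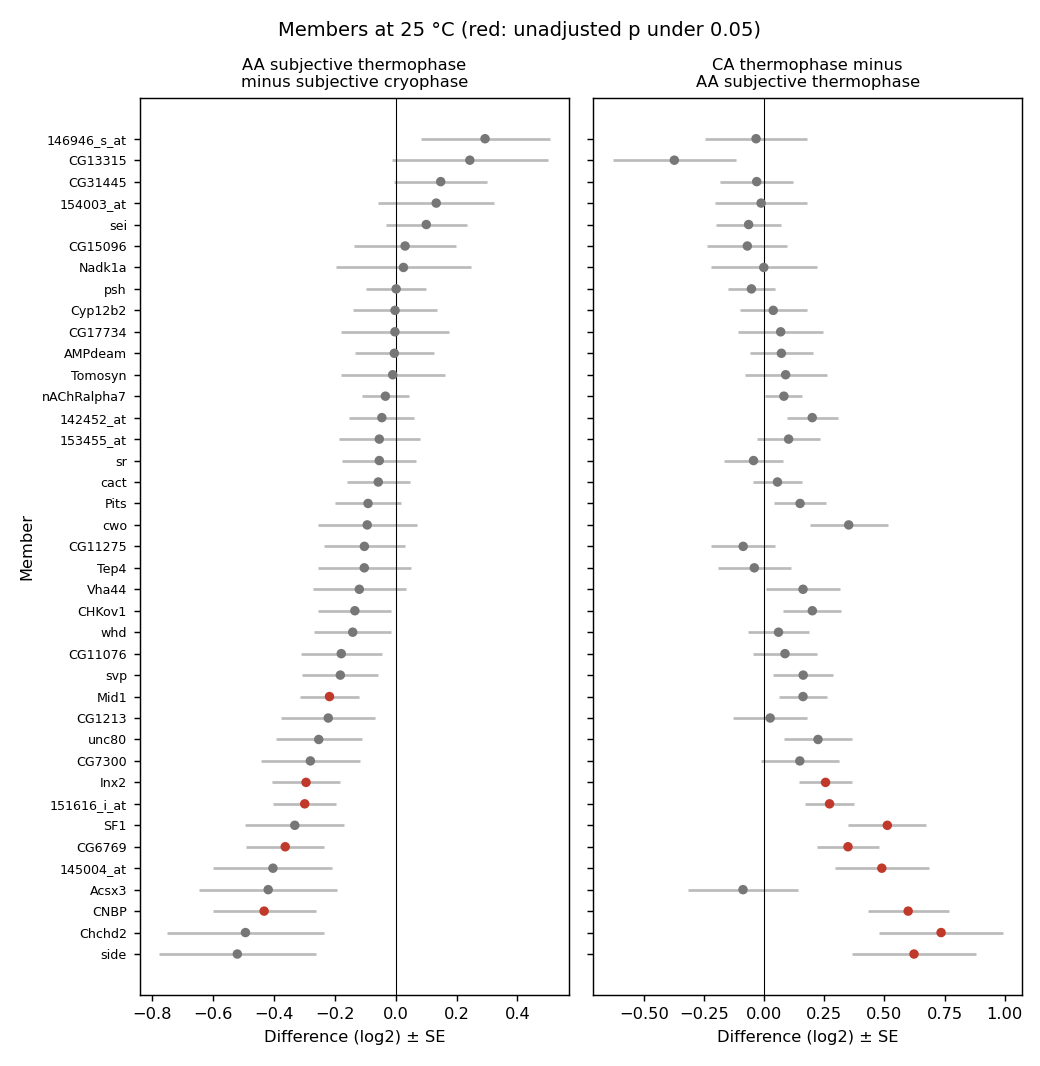
Difference (log2) ± SE for each member in the 2 comparisons among arrays at 25 °C, AA subjective thermophase minus subjective cryophase (left) and CA thermophase minus AA subjective thermophase (right), in the order of the left panel. Red points have an unadjusted limma p under 0.05, 5 on the left and 8 on the right, and none passed after adjustment. Both panels contain the same 3 arrays AA14, AA18 and AA22.

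A 24-h cosine and sine were fitted to each day in a model of all 12 arrays, and the terms of the AA day were tested. The spread behind each p-value therefore includes the CA day. An unadjusted limma p under 0.05 was found for 5 members, 12.8% against 3.03% of all probe sets, again among probe sets selected partly on the AA arrays. These were CNBP (amplitude 0.39, fitted peak at hour 3.26), 151616_i_at (0.24, hour 4.33), Acsx3 (0.37, hour 6.73), CG6769 (0.27, hour 4.01) and Inx2 (0.23, hour 5.0). Without AA14 the amplitude was 0.24 for CNBP and 0.16 for CG6769, and without AA18 it was 0.16 for Acsx3 and 0.43 for CG6769. The smallest adjusted p of the members was 0.994, and 0.0% of all probe sets were called. The fitted peak lay before hour 12, in the subjective cryophase, in 35 of 39 members (89.74%) and in 47.16% of all probe sets. This peak rests on the same 6 AA arrays as the comparison of the AA phases, so both results are tied. The median amplitude was 0.16 for the members and 0.09 for all. The amplitude of CG13315 was 0.07, and that of cwo was 0.25 with a fitted peak at hour 10.10. The count of 5 was 1 without AA6, 3 without CA2, AA10 or AA14, 11 without AA2 and 14 without AA22, and it was 17 with the eIF-4a covariate and 14 with array weights. Each of the 6 hours was sampled once, so a daily rhythm and a difference between single arrays cannot be told apart.

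For 9 members the array carried further probe sets of the same gene, 19 in all. Of these 16 had a higher mean at 18 °C, 7 reached a difference of 0.3, and 0 kept their 18 °C values clear of the warm ones. The second probe set of CNBP (142508_at) had a difference of 0.71, and missed the rule because its lowest value at 18 °C (8.162) was under its highest at 25 °C (8.166). The third (141938_at) had -0.02. The 4 others of Tomosyn had 0.21, 0.37, 0.51 and 0.60, the other of svp 0.35 and that of Pits 0.30. For side the 5 others had 0.01 to 0.31, for cwo the other had 0.15, for Mid1 0.10 and 0.16, and for nAChRalpha7 0.19 at a mean of only 2.52. Those of AMPdeam had -0.07 and -0.12. For all of these genes but CNBP and Tomosyn the member had a larger difference than each other probe set of its gene, though by little for svp and Pits.

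**Figure D5:**
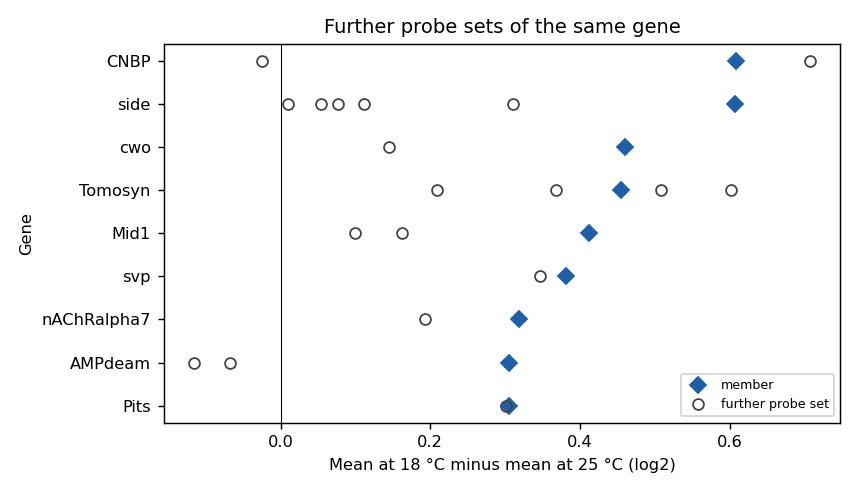
Mean at 18 °C minus mean at 25 °C (log2, horizontal axis) for the 9 genes with further probe sets (rows). The filled diamond is the member and each open circle a further probe set. Circles lie near or beyond the diamond for CNBP, Tomosyn, svp and Pits, and at or below 0 for AMPdeam.

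Lists of related genes held few of the members. Of 14 probe sets of clock genes with a mean of at least 4, 10 had a higher mean at 18 °C (median 0.14), and cwo was the only member. Clk (0.58) and per (0.32) had large differences with overlap, and the 2 probe sets of tim had -0.41 and -0.55. Of 42 probe sets of ion channels 21 were higher (median 0.00), with nAChRalpha7 and sei as members. Of 41 of transcription factors 26 were higher (median 0.06), with sr and svp as members. Of 90 of detoxification enzymes 59 were higher (median 0.05), with Cyp12b2 as a member. Of 28 of immune genes 17 were higher (median 0.02), with Tep4 as a member. The lists were drawn by gene name, so they hold some genes of other kinds. The immune list counts drosha (0.009) and drongo (0.037), which are not immune genes. Likewise Cyp1 (0.05) is no detoxification enzyme and Eip63E (0.29) no transcription factor, and all are counted among the higher probe sets. The lists do not include the members unc80, Mid1, psh and cact. Over all 8121 probe sets 3846 were higher and the median was -0.01. There were 0 members among 7 probe sets of cold response genes (3 higher, median -0.04), 19 of chaperones (3 higher, median -0.21), 21 of carbohydrate metabolism (6 higher, median -0.11) and 69 of cuticle proteins. Of 32 probe sets on the list of splicing and RNA-binding proteins 21 were higher (median 0.10). That list does not include SF1 or CNBP, so it says nothing of these members.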

How the data were processed

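The deposited matrix holds log2 values from RMA, run by the authors (version not stated). The log base is not printed there, and the near-equal medians and range are those of log2 values. The 44 control probe sets were left out. Gene names came from the platform annotation (12443 probe sets with 1 symbol, 327 with several, 1196 with none), updated through RefSeq for 12394, and no coordinates or sequences were used. Probe sets with more than 6 of 12 values above 2.93, the 20th percentile of all values, were tested (11137).

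Group means of 4 groups were fitted with limma 3.58.1 in R 4.3.3 (8 residual degrees of freedom; 6 for the 24-h model), two-sided, with Benjamini-Hochberg adjustment over all tested probe sets. The code was tested on simulated data. The members and lists were chosen with earlier results of these data known. Named were the 20 members with the largest difference, the 5 smallest p-values in each comparison and direction, members of the gene lists, members with further probe sets, and CG13315. whd, Vha44, psh, cact, CG17734, CG11076, 153455_at and 142452_at were named after their values were seen. The number of arrays limits the precision, and no batch information was given. Alternatives were the filter, quantile normalization, variance model, array weights, arrays in the fit, eIF-4a and body-marker covariates, and leaving out each array.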

Additional observations from a re-analysis of the deposited data

How the results depend on the processing

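The number of members with an unadjusted limma p under 0.05 in the AA comparison (5) was 10 with array weights, 16 with the eIF-4a covariate and 1 to 10 when each array was left out. In the comparison of late hours (8) it was 13 with array weights and 4 to 10 with arrays left out, and with hour of day as a block it was 8. In the 24-h fit (5) it was 14 with array weights, 17 with the eIF-4a covariate and 1 to 14 with arrays left out. No share over all probe sets at an unadjusted limma p under 0.05 is given for these runs. Over all probe sets, an adjusted p under 0.05 (0 in each comparison) was found for 3 in the AA comparison when only its own arrays were fitted and for 5 in the 24-h fit with the eIF-4a covariate. In every other alternative run it stayed at 0. The members (39) would be 12 with a difference of at least 0.5, 8 with a gap of at least 0.1, 99 against the CA thermophase alone and 81 against the AA arrays alone. Leaving out single arrays gave 34 to 276, with 276 without CA2, 74 without AA6 and 69 without CA22. After quantile normalization 43 probe sets met the rule, and 32 of them were among the 39. CNBP, SF1, Inx2, CG6769, AMPdeam, 142452_at and sei no longer met it. The differences of the members with an unadjusted limma p under 0.05 kept their sign in every alternative run, and none passed adjustment. Only the hour pairs the arrays of the 2 days, and no label gives a replicate number. The cause of these changes was not tested.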

Other observations

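Related genes were looked up after pairs of members had been seen to share a pathway, so the following values describe and test nothing. Of 13 probe sets of the Toll pathway with a mean of at least 4, 8 had a higher mean at 18 °C (median difference 0.06), and psh and cact were members. The ligand spz had a difference of 0.32, the adaptors tub and Myd88 had 0.20 and 0.15, and the serpin nec had -0.25. The 2 probe sets of the kinase pll differed in sign, with -0.18 (142067_at) and 0.06 (142881_at). Of 5 probe sets of the sodium leak channel complex 4 were higher at 18 °C (median 0.23), with unc80 and Mid1 as members. Its unc79 had 0.23, and na, the channel pore itself, had -0.01. Of 12 probe sets of fatty acid oxidation 6 were higher (median 0.01), with Acsx3 and whd as members. Acsl and CPT2 had 0.37 and 0.19, and scu and Mtpbeta, enzymes of the oxidation steps, had -0.21 each.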
